A study of Mus musculus with 4 samples.

Results

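Complement is a set of proteins that tag targets for uptake and start inflammation, and the genes described here are 9 of its components, regulators and receptors. They were taken by gene name from the deposited expression table: C1qa, C1qb, C1qc, C3, Cfb, Cfp, Cr1l, C3ar1 and C5ar1. All 9 were found among the 24473 genes of that table, and all 9 passed the filter on low counts that left 15733 genes for testing. The cells were BV-2, an immortalised mouse microglial line, which stands in for the resident macrophages of the brain and is not primary microglia. The SIX2 knockdown group held 2 libraries, titled sh s1 and sh s2, of BV-2 cells with a knockdown of the homeobox transcription factor SIX2. The control group held 2 libraries, titled sh c1 and sh c2, with the genotype given as WT. Both groups had received lipopolysaccharide (LPS), a bacterial cell wall component, at 100 ng/mL for 24 h, so no library shows complement expression without LPS. The titles of both groups hold the letters sh. The sources used here do not say whether the control cells carried a construct, or whether libraries of a group came from separate cultures. The p-values thus measure only library-to-library spread, which may be technical.

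Complement starts by several routes that meet at C3. In the classical route C1q, built from the A, B and C chains, recognises antibody complexes, dying cells and, in the developing brain, synapses, and activates the proteases C1r and C1s. In the alternative route factor B, the product of Cfb, joins C3 cleavage products to form a convertase that properdin, the product of Cfp, stabilises. Small fragments released from C3 and C5 signal through the receptors encoded by C3ar1 and C5ar1, and Cr1l encodes Crry, a rodent membrane protein that restrains C3 activation on the cell's own surface. Microglia are the main source of C1q in the mouse brain.

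The knockdown libraries held 74.7 and 64.3 M counts and the control libraries 75.7 and 61.0 M. About 4 deposited counts stood for 1 sequenced fragment, which puts depth at 15.2 to 18.9 M fragments a library. Six2 had a count of 0 in all 4 libraries, and the limit set by finding none is 12 counts (3 fragments) a library, which is 0.159 to 0.197 CPM (a count as a share of its library's total), so the knockdown could not be checked on its own transcript. Of 12 microglia and macrophage markers 11 passed the filter on low counts. Cd68 stood at 443 to 485 FPKM (fragments scaled to transcript length and library total) in the 4 libraries. Among the 11, the microglial marker Cx3cr1 was scarce, at 0.0505 and 0.165 FPKM in knockdown and 0.0747 and 0.0864 FPKM in control. The microglial marker P2ry12, not tested, was listed at 0 in both knockdown libraries and at 0.108 and 0.0220 FPKM in control. Knockdown library 2 stood apart in holding traces of liver transcripts. Alb, the albumin gene, had 0 and 1212 counts in knockdown libraries 1 and 2 and 0 in both control libraries, and Apoa1 and Fgb were also counted in knockdown library 2 and in no other. The fourth liver marker, Ttr, also a choroid plexus gene, ran otherwise, at 1.85 and 1.18 FPKM in knockdown and 4.26 and 4.42 FPKM in control. Knockdown library 2 also held the least of the traces of neuronal and oligodendrocyte transcripts: the summed level of 4 oligodendrocyte genes was 1.21 and 0.0444 FPKM in knockdown libraries and 2.03 and 1.88 FPKM in control, and that of 5 neuronal genes 0.367 and 0 FPKM in knockdown and 0.869 and 0.696 FPKM in control. The 4 astrocyte genes summed to 0.183 and 0.106 FPKM in knockdown and 0.432 and 0.342 FPKM in control. Fibroblast genes, and likewise T and B cell genes, summed to at most 0.137 FPKM in any library, while the endothelial marker Kdr stood at 22.5 and 21.2 FPKM in knockdown and 22.0 and 22.4 FPKM in control.

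The 3 C1q chain genes and C3 were lower in the SIX2 knockdown libraries, while the other 5 genes did not pass the test. Summed over the chains, C1q transcripts stood at 112 and 111 FPKM in the knockdown libraries and at 240 and 234 FPKM in the control libraries. By edgeR's quasi-likelihood test, 4 of the 9 genes fell at a Benjamini-Hochberg adjusted p under 0.05, 0 rose and 5 did not pass, where 0.953% of all genes tested passed, 0.547% as lower and 0.407% as higher. At an unadjusted p under 0.05, 6 of the 9 were lower and 2 higher, where 14.2% of all genes tested passed in either direction. DESeq2 called 6 of the 9, and 681 of the 22759 genes it was given. Knockdown and control libraries had separate ranges for 9 of the 9 genes, as for 47.6% of all genes tested. The median log2 fold change of the 9 was -0.93 and that of all genes tested -0.01. In bulk libraries, fewer cells that express a gene and less of its RNA per cell cannot be told apart.

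**Figure D1:**
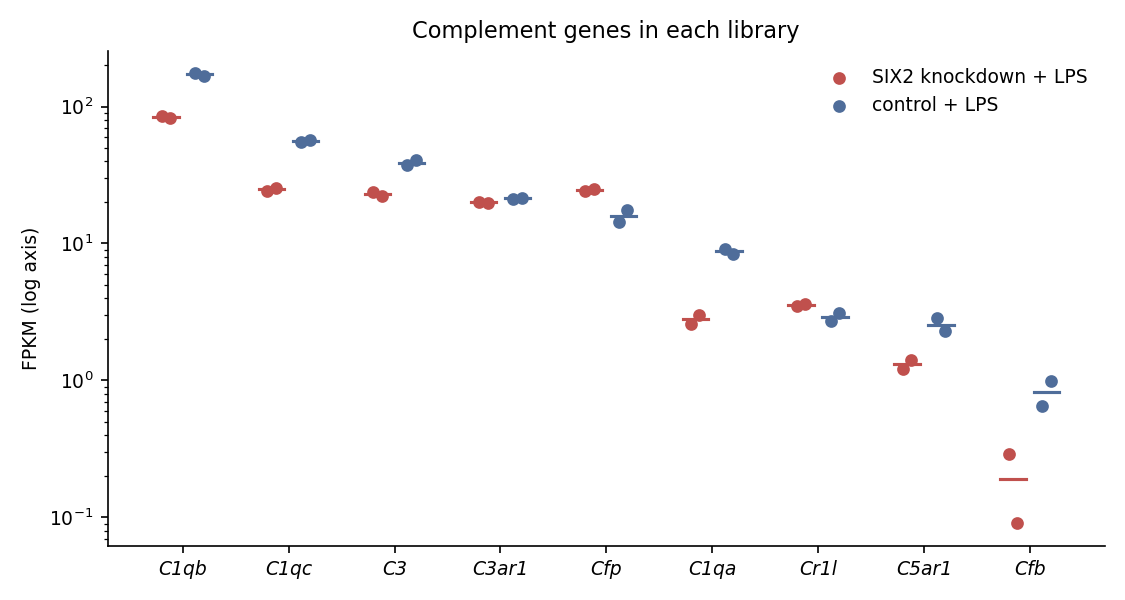
FPKM of the 9 complement genes on a log axis, with 1 point per library and a bar at the mean of each group (SIX2 knockdown in red, control in blue, 2 libraries each, all with LPS). The points of C1qb, C1qc, C3 and C1qa lie lower in knockdown, those of C3ar1 lie close together at 19.7 to 21.6 FPKM, and those of Cfp lie higher in knockdown.

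C1qb encodes the B chain and was the most abundant complement transcript of the 9, at rank 428 of the 24473 genes by mean FPKM. It had 84.9 and 82.9 FPKM in knockdown libraries, against 175 and 168 FPKM in control libraries. Both knockdown libraries lay near 50% of control, and the libraries of a group differed by far less than the groups. Its fall was 1.00 ± 0.07 log2 units (SE), with an adjusted p of 0.00737 by edgeR.

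C1qc encodes the C chain. It had 24.2 and 25.4 FPKM in knockdown libraries and 55.4 and 57.2 FPKM in control libraries, again with no overlap. It fell to 45.2% of control, a log2 fold change of -1.15 ± 0.08 (SE, edgeR adjusted p = 0.00646).

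C1qa encodes the A chain and was the least abundant of the chains. It had 2.59 and 2.99 FPKM in knockdown libraries and 9.17 and 8.35 FPKM in control libraries. These values rest on few reads, 225 and 223 counts in knockdown and 804 and 588 counts in control, or about 56.3 and 55.8 fragments in knockdown. The 95% Poisson intervals in fragments, which cover counting error only, were 42.5 to 73.0 and 42.1 to 72.4 in knockdown and 174 to 231 and 124 to 173 in control, so the groups stayed apart. It fell to 32.7% of control, a log2 fold change of -1.61 ± 0.21 (SE, edgeR adjusted p = 0.0267).

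The calls of C1qb and C1qc held when any 1 library was left out, with adjusted p of 0.0310 to 0.0382 and 0.0238 to 0.0313 by edgeR. That of C1qa was lost without knockdown library 1 or 2 (adjusted p = 0.0952 and 0.119) and without control library 1 or 2 (0.117 and 0.107). The oligodendrocyte traces were, like C1q, lower in knockdown (1.21 and 0.0444 FPKM) than in control (2.03 and 1.88 FPKM), beside a summed C1q level of 112 and 111 FPKM in knockdown and 240 and 234 FPKM in control, and the part of such traces in the C1q values was not tested.

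The fitted falls of the chains differed in size. The FPKM ratio of C1qb to C1qa was 32.8 and 27.7 in knockdown libraries and 19.1 and 20.1 in control libraries, with no overlap between groups. C1qa made up 2.32% and 2.69% of the summed chain FPKM in knockdown and 3.82% and 3.57% in control. On the log2 scale of counts, C1qa relative to C1qb was lower by 0.62 in knockdown (mean ratio -4.97 in knockdown and -4.36 in control), and C1qa relative to C1qc had a difference of -0.47. C1qc relative to C1qb had log2 count ratios of -0.98 and -0.88 in knockdown and -0.83 and -0.73 in control, a difference of -0.15 that is little more than the gap between libraries of 1 group. With 2 libraries a group, the two-sided exact permutation test gave p = 0.333 for each of the 3 ratios, the smallest value this test allows with so few libraries, so it cannot show whether the ratios differ. FPKM corrects for length only, and differences in how completely each transcript was captured also enter a ratio between genes.

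**Figure D2:**
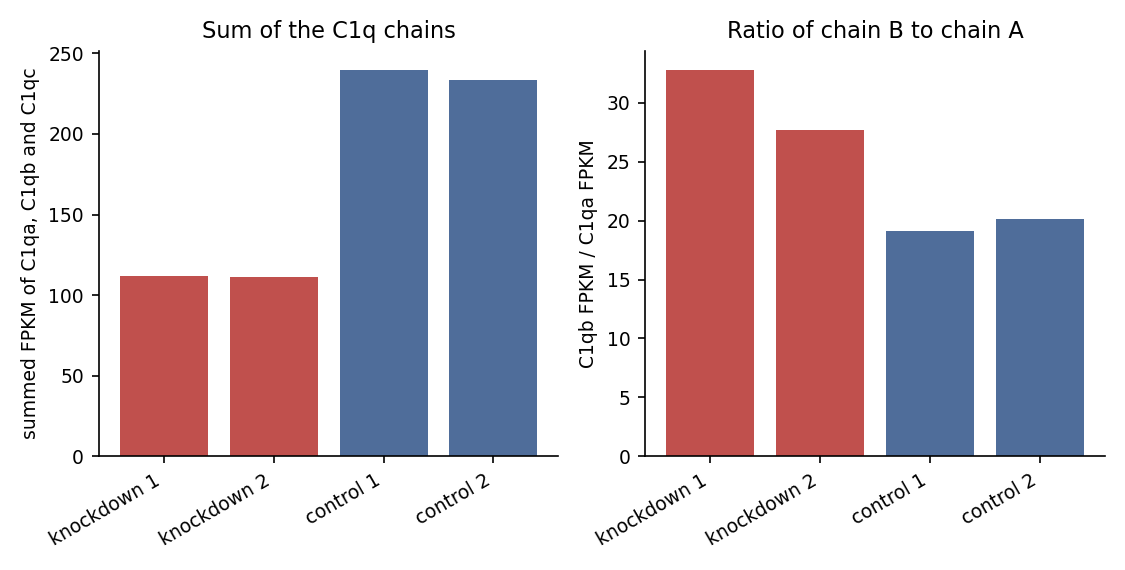
Summed FPKM of C1qa, C1qb and C1qc (left) and the ratio of C1qb to C1qa FPKM (right) in each library, knockdown in red and control in blue. The sum is 112 and 111 FPKM in knockdown and 240 and 234 FPKM in control, and the ratio is 32.8 and 27.7 in knockdown and 19.1 and 20.1 in control.

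The chain genes form a cluster on mouse chromosome 4 (GRCm38, minus strand), in the order C1qb (136880129 to 136886187), C1qc (136889804 to 136893065) and C1qa (136895917 to 136898803). Each has 3 exons in its longest coding transcript. The cluster spans 18675 bases, with 3616 bases between C1qb and C1qc and 2851 bases between C1qc and C1qa. To see whether the neighbourhood moved with it, all genes within 500 kb on either side were listed, a choice made by position after the C1q values were seen. There were 26 other gene models, of which 15 had a count of 0 in every library, 4 had too few counts and 7 were tested. By edgeR 0 of the 7 passed, against 0.953% of all genes tested, and DESeq2 called 0. At an unadjusted p under 0.05, 1 of the 7 was higher, against 14.2% of all genes tested in either direction. Counts over so few genes, this near the shares over all genes, cannot show whether the neighbourhood moved. The log2 fold changes of the 7 ran between -0.31 and 0.31. Ephb2, an ephrin receptor kinase gene and the nearest tested gene on one side, had 1.31 and 1.41 FPKM in knockdown and 1.54 and 1.77 FPKM in control (adjusted p = 0.461). Zbtb40, a zinc finger gene and the nearest on the other side, had 3.60 and 3.48 FPKM in knockdown and 3.53 and 3.31 FPKM in control (adjusted p = 0.768).

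**Figure D3:**
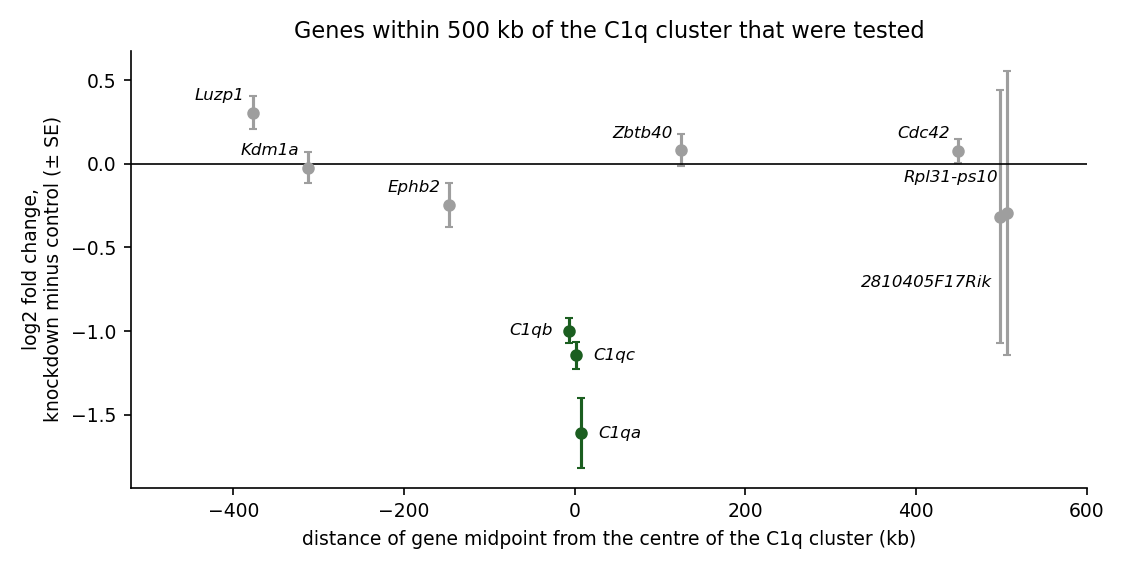
Log2 fold change (knockdown minus control, bars ± SE) of every tested gene within 500 kb of the C1q cluster against the distance of its midpoint from the cluster's centre in kb. The 3 C1q genes lie at -1.0 or below, down to -1.61, and the other 7 genes between -0.31 and 0.31.

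C3, the central component on which the routes converge, was the other gene that fell. It had 23.6 and 22.2 FPKM in knockdown libraries and 37.5 and 40.5 FPKM in control libraries. Both knockdown libraries lay below both control libraries. It fell to 60.2% of control, a log2 fold change of -0.73 ± 0.08 (SE, edgeR adjusted p = 0.0152). The gene lies on chromosome 17 (57203970 to 57228136, minus strand, GRCm38) and has 41 exons. Its call held without knockdown library 1 (adjusted p = 0.0470) and was lost without knockdown library 2 (0.0948), control library 1 (0.0502) or control library 2 (0.0879).

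Promoter sequences of the genes that fell are shown because C1qb, C1qc and C3 moved in the same direction, and the letters can be searched for known motifs. RefSeq's promoter table (GRCm38.p6) matched 7 of the 9 genes, and C1qa and Cfb were not matched. Each sequence runs 5′ to 3′ on the gene's own strand, from 250 bases before the annotated start to 50 bases after it. Capitals mark matches to a PU.1 core (GAGGAA), a MAF motif (TGCTGA), a C/EBP motif (TTGCNNAA), the NF-kB consensus or a TATA box (TATAAA), on either strand.
C1qb (chr4:136886151-136886450, minus strand): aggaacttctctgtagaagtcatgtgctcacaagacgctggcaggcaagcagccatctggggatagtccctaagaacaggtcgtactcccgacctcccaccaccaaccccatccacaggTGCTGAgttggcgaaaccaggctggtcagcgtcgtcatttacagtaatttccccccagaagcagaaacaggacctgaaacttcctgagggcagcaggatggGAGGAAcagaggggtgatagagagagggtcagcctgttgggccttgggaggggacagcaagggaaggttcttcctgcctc
C1qc (chr4:136892865-136893164, minus strand): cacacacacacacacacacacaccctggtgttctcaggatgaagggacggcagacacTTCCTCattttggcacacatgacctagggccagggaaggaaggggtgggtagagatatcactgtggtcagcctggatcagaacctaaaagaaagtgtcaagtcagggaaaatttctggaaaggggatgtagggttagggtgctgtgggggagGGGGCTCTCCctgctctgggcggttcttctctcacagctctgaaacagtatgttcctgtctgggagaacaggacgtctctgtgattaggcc
C3 (chr17:57228087-57228386, minus strand): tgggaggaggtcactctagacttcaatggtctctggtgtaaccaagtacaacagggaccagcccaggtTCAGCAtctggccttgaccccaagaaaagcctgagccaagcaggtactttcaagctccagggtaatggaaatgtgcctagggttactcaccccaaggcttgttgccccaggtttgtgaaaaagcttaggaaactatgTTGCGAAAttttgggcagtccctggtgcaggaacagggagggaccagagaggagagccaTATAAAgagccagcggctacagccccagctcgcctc

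Positions count from the annotated start, negative before it, and give the leftmost base of a match. C1qb held a PU.1 core at -30 and a MAF motif at -131. C1qc held a PU.1 core in reverse at -193 and an NF-kB match at -41. The C1qc gene model given above begins at 136893065 on its strand, inside this window and upstream of the start used for these positions. By that model the NF-kB match lies inside the gene and the PU.1 core before it. C3 held a C/EBP match at -45, a MAF motif in reverse at -182 and a match to the TATA box letters at 15, after the annotated start. None of these matches overlapped another. These motifs are common: of 32851 promoters in the table, 28.3% held the PU.1 core, 19.5% the MAF motif, 10.8% the C/EBP motif, 8.46% the NF-kB consensus and 13.6% the TATA box. Among the 7 complement promoters, 3 held the PU.1 core (C1qb, C1qc and Cfp) and 4 the MAF motif (C1qb, C3, C5ar1 and C3ar1). The motif TCAGGTTNC, known for SIX2, was in 1.21% of all promoters and in 0 of the 7, and the interferon-stimulated response element (GAAA, any 2 bases, GAAA) was in 3.44% and in 0 of the 7. The AP-1 motif TGANTCA was in C3ar1 and in 7.81% of all promoters, the CCAAT box in C5ar1 and in 37.4%, and the GAS motif TTCNNNGAA in 0 of the 7 and in 8.30%.

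The remaining components belong to the alternative route, had fold changes of opposite sign and did not pass the test. Cfp, which encodes properdin, had 24.1 and 24.8 FPKM in knockdown libraries and 14.3 and 17.6 FPKM in control libraries. Both knockdown libraries lay above both control libraries. Its log2 fold change was 0.65 ± 0.12 (SE, adjusted p = 0.0811, edgeR), and DESeq2 (adjusted p = 0.00115) and edgeR without a filter on low counts (0.0246) called it higher. Cfp lies on the X chromosome (20925454 to 20931555, minus strand).

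Cfb, which encodes factor B, was scarce, with 70 and 19 counts in knockdown libraries and 156 and 189 counts in control libraries. These correspond to 0.291 and 0.0907 FPKM in knockdown and 0.647 and 0.987 FPKM in control. In fragments the 95% Poisson intervals were 10.3 to 27.8 and 1.49 to 11.3 in knockdown and 27.7 to 53.3 and 34.7 to 62.8 in control. The groups did not overlap, but the knockdown libraries differed widely, and the log2 fold change of -2.02 ± 0.61 did not pass (SE, adjusted p = 0.217, edgeR). Cfb (chromosome 17, 34856374 to 34862518, minus strand) overlaps Gm20547, a longer coding model on the same strand (34856412 to 34882042). Gm20547 had 8 and 83 counts in knockdown and 0 in both control libraries, and these need not come from Cfb sequence. Counted together with that model and a microRNA model inside the gene, there were 82 and 103 counts in knockdown and 158 and 189 in control, and the log2 fold change was -0.91 (adjusted p = 0.387). The sources used here do not say how reads were divided between these models. The library with most Gm20547 counts is the one with liver traces, and liver is a main site of factor B synthesis. The level of Cfb is therefore uncertain, and the part of the liver traces in it was not tested. Without knockdown library 1 the log2 fold change was -3.08, and without knockdown library 2 it was -1.43.

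Of the regulator and receptors, C3ar1 was the nearest to equal between the groups. It had 20.3 and 19.7 FPKM in knockdown libraries and 21.1 and 21.6 FPKM in control libraries, with a log2 fold change of -0.06 ± 0.07 (SE, adjusted p = 0.779, edgeR). C5ar1 had 1.21 and 1.41 FPKM in knockdown libraries and 2.83 and 2.28 FPKM in control libraries. Its knockdown libraries lay near 52.6% of control, but the log2 fold change of -0.93 ± 0.24 did not pass (adjusted p = 0.160, edgeR), while DESeq2 called it lower (adjusted p = 0.0435). Its counts were 261 and 260 in knockdown and 615 and 398 in control, in libraries of unequal depth. Scaled to depth, it had 3.52 and 4.11 CPM in knockdown (SD 0.41) and 8.06 and 6.44 CPM in control (SD 1.15). Cr1l had 3.48 and 3.59 FPKM in knockdown libraries and 2.72 and 3.10 FPKM in control libraries, with a log2 fold change of 0.31 ± 0.11 (SE, adjusted p = 0.265, edgeR). C3ar1 lies on chromosome 6 (122847138 to 122856161), C5ar1 on chromosome 7 (16246743 to 16259540) and Cr1l on chromosome 1 (195097382 to 195131586), all on the minus strand.

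**Figure D4:**
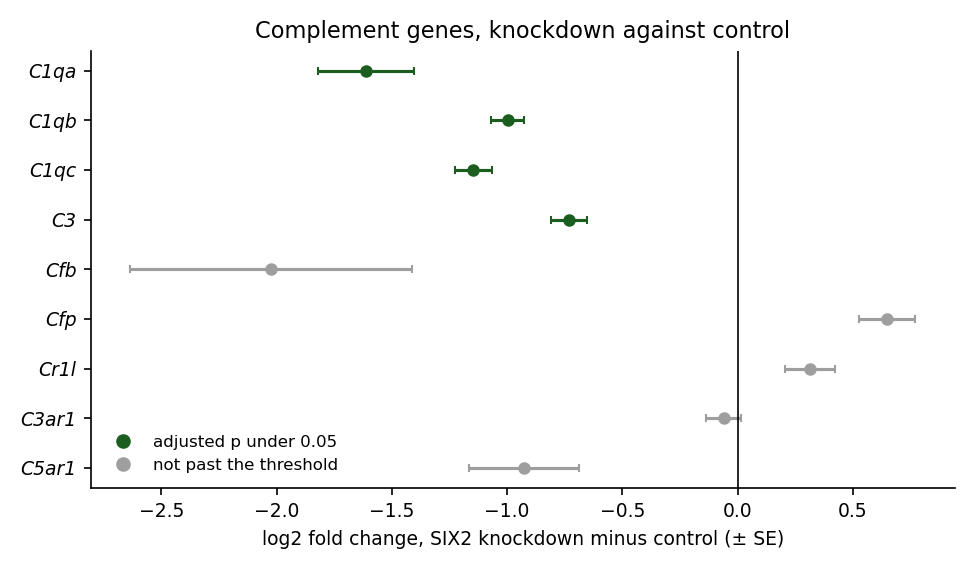
Log2 fold change of the 9 complement genes (knockdown minus control, bars ± SE, 2 libraries each), ordered by role from C1q chains through C3 and the alternative route to the regulator and receptors. C1qa, C1qb, C1qc and C3 (green) passed an adjusted p of 0.05, and Cfb has the widest error, 0.61.

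The order of the 9 genes by FPKM changed between the groups. In the knockdown libraries it ran C1qb, C1qc, Cfp, C3, C3ar1, Cr1l, C1qa, C5ar1 and Cfb, and the ranges of C1qc (24.2 to 25.4) and Cfp (24.1 to 24.8) overlapped. In the control libraries it ran C1qb, C1qc, C3, C3ar1, Cfp, C1qa, Cr1l, C5ar1 and Cfb, and the ranges of Cr1l (2.72 to 3.10) and C5ar1 (2.28 to 2.83) overlapped. C1qb headed both orders, at 83.9 ± 1.36 FPKM in knockdown and 172 ± 4.91 FPKM in control (SD, n = 2 each).

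Around these 9 genes, most of the 66 other complement and related genes listed were silent or scarce in both groups. The 66 include 13 genes for other C1q-domain proteins and 5 for C1q-binding proteins. Of the 66, 21 had a count of 0 in every library, 22 had too few counts and 23 were tested. By edgeR 0 of the 23 passed, against 0.953% of all genes tested. At an unadjusted p under 0.05, 1 was lower and 1 higher, against 14.2% of all genes tested in either direction. The median log2 fold change of the 23 was 0.02. DESeq2 called 2 and limma-voom 0, against 681 of 22759 and 65 of 15733 over all genes. Genes for the proteases that C1q activates were scarce: C1ra had 0.700 and 0.968 FPKM in knockdown and 0.719 and 0.451 FPKM in control, and C1s1 had 0 and 0.0635 FPKM in knockdown and 0 and 0.0179 FPKM in control. The next components were scarce too, with C2 at 0.139 and 0.0655 FPKM in knockdown and 0.0529 and 0.141 FPKM in control, and C4b at 0.0279 and 0.0918 FPKM in knockdown and 0.0193 and 0.0672 FPKM in control. C4b has a near-identical copy, C4a, so its level is uncertain. Cfd, which encodes the factor B cleaving protease factor D, had a count of 0 in all 4 libraries. Of 7 terminal pathway genes, which form the membrane attack complex, only C8g was tested, at 0.462 and 0.295 FPKM in knockdown and 0.344 and 0.703 FPKM in control. Of 13 genes for other C1q-domain proteins, 3 were tested and 0 passed by edgeR, with 0 at an unadjusted p under 0.05 and 0 by DESeq2. The highest in level, C1qtnf12 and C1qtnf6, reached 0.177 and 0.199 FPKM at most in any library.

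Of the 66 other genes listed, 7 were counted in knockdown library 2 alone. Another 3 were counted in control library 2 alone, 1 in control library 1 alone and 0 in knockdown library 1 alone. In knockdown library 2 the liver-expressed genes Masp1, Masp2, Mbl1, Mbl2, C8a, C8b and Cpn2 had 4 to 12 counts each. In the other 3 libraries each of these had a count of 0. Vtn, which encodes vitronectin, had 4 and 53 counts in knockdown and 4 and 0 in control, and C9 had 4 and 23 counts in knockdown and 0 in both control libraries. These counts stood beside the albumin counts of that library.

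The most abundant partners did not pass the test. C1qbp, a mitochondrial protein that also binds C1q, had 211 and 206 FPKM in knockdown and 206 and 193 FPKM in control (adjusted p = 0.599, edgeR). Calr, which encodes calreticulin, a C1q-binding chaperone, had 393 and 410 FPKM in knockdown and 402 and 426 FPKM in control (adjusted p = 0.977). Clu, which encodes clusterin, a fluid-phase inhibitor of the terminal pathway, had 36.4 and 35.3 FPKM in knockdown and 44.0 and 39.4 FPKM in control (adjusted p = 0.397). Cpn1, which encodes a subunit of the carboxypeptidase that trims complement fragments, was scarce at 0.109 and 0.143 FPKM in knockdown and 0.102 and 0.103 FPKM in control (adjusted p = 0.908). Colec12, a scavenger receptor with a collectin domain, had 8.77 and 9.42 FPKM in knockdown and 8.50 and 8.07 FPKM in control (adjusted p = 0.445). The 2 genes nearest to the threshold went opposite ways. Itgb2, the shared beta chain of the phagocytic complement receptors CR3 and CR4, had 13.3 and 11.8 FPKM in knockdown and 17.1 and 17.7 FPKM in control (log2 fold change -0.44 ± 0.10, SE, adjusted p = 0.113, edgeR). Its partner Itgam had 16.6 and 14.2 FPKM in knockdown and 16.05 and 17.3 FPKM in control (adjusted p = 0.786). Lrp1, an uptake receptor that can bind C1q, had 14.1 and 12.9 FPKM in knockdown and 10.3 and 10.2 FPKM in control (log2 fold change 0.43 ± 0.07, SE, adjusted p = 0.0656, edgeR). DESeq2 called both, Itgb2 lower and Lrp1 higher (adjusted p = 0.0145 and 0.000498). The membrane regulators beside Cr1l were scarce: Cd46 had 23 and 15 counts in knockdown and 35 and 46 in control, Susd4 had 16 and 0 counts in knockdown and 8 and 4 in control, and Cd55 was listed at 0 in both knockdown libraries and at 0.00922 and 0.0115 FPKM in control.

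Of 10 transcription factor genes linked to complement or macrophage expression, 1 fell, 0 rose and 9 did not pass by edgeR. Over all genes tested, 0.953% passed, 0.547% as lower. At an unadjusted p under 0.05, 2 of the 10 were lower and 0 higher, against 14.2% of all genes tested in either direction. DESeq2 called 1 and limma-voom 0, against 681 of 22759 and 65 of 15733 over all genes. Maf, a large MAF family factor of macrophages, had 4.33 and 4.66 FPKM in knockdown and 7.23 and 8.39 FPKM in control, a log2 fold change of -0.76 ± 0.10 (SE, edgeR adjusted p = 0.0304). The call was lost when any 1 library was left out, with an adjusted p of 0.105 and 0.137 without knockdown 1 or 2 and of 0.0657 and 0.157 without control 1 or 2. Spi1, which encodes the macrophage factor PU.1, had 65.7 and 61.7 FPKM in knockdown and 68.1 and 64.7 FPKM in control (adjusted p = 0.931), with overlapping groups. Cebpb had 116 and 86.6 FPKM in knockdown and 125 and 136 FPKM in control (adjusted p = 0.392). Over these 10 genes the median log2 fold change was -0.13.

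**Figure D5:**
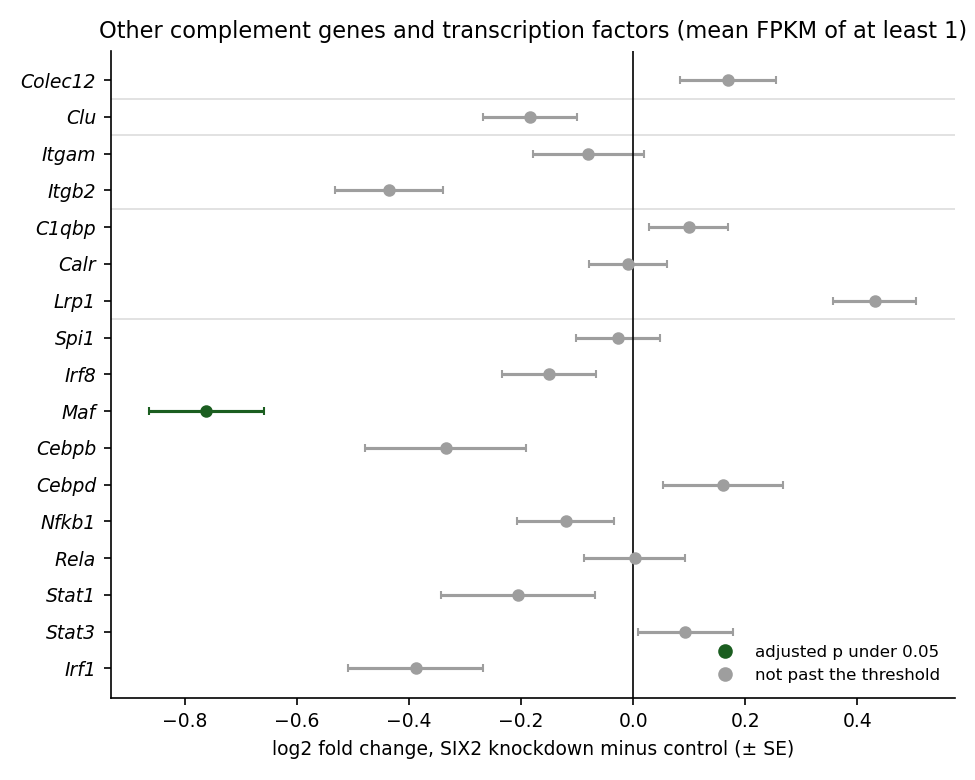
Log2 fold change (knockdown minus control, bars ± SE) of the other complement genes and the transcription factor genes with a mean of at least 1 FPKM, with lines between roles. Maf (green) passed an adjusted p of 0.05, and Itgb2 at -0.44 and Lrp1 at 0.43 were the complement genes plotted farthest from 0.

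The macrophage markers fell in part. Of the 11 tested, 3 fell, 0 rose and 8 did not pass by edgeR, where 0.953% of all genes tested passed, 0.547% as lower. At an unadjusted p under 0.05, 4 of the 11 were lower and 2 higher, where 14.2% of all genes tested passed in either direction. DESeq2 called 5 and limma-voom 1, against 681 of 22759 and 65 of 15733 over all genes. The median log2 fold change of the 11 was -0.04. Adgre1, which encodes the F4/80 antigen, had 45.6 and 48.1 FPKM in knockdown and 71.3 and 76.9 FPKM in control (adjusted p = 0.0198, edgeR). Aif1, which encodes IBA1, had 5.57 and 6.64 FPKM in knockdown and 11.8 and 14.0 FPKM in control (adjusted p = 0.0440). Csf1r, the receptor for the growth factors CSF1 and IL-34, had 35.6 and 33.0 FPKM in knockdown and 48.5 and 49.3 FPKM in control (adjusted p = 0.0426). The calls of these 3 genes were lost in each fit that left out 1 library, with adjusted p of 0.0599 to 0.114 for Adgre1, 0.0954 to 0.214 for Aif1 and 0.0878 to 0.227 for Csf1r. Summed over the list, the markers stood at 695 and 664 FPKM in knockdown and 738 and 762 FPKM in control, and their part in the C1q and C3 values was not tested.

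The genes whose pattern over the 4 libraries was most like that of C1q were found by the smallest Euclidean distance between centred log2 CPM profiles, among 9969 genes that averaged 5 CPM or more. With 2 libraries a group this measure reflects little more than the size of the difference and the gaps between libraries, and it is given as a description. The nearest was Kctd12, a potassium channel tetramerisation domain gene, at a distance of 0.0994. It had 11.8 and 11.6 FPKM in knockdown and 29.4 and 29.8 FPKM in control. Next came Mxd4, a MAX-binding repressor gene (distance 0.127), and Marco, a macrophage scavenger receptor gene (0.130). Marco had 30.9 and 36.1 FPKM in knockdown and 77.4 and 79.5 FPKM in control. Hp, which encodes haptoglobin (0.132), and Syt7, a synaptotagmin gene (0.143), completed the nearest 5, with Hp at 10.7 and 10.1 FPKM in knockdown and 24.5 and 24.7 FPKM in control.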

How the data were processed

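RNA sequencing was done on 2 libraries of BV-2 cells with SIX2 knockdown and 2 control libraries, grouped by the genotype in the labels. Per the labels' protocols, poly(A) RNA was made into dUTP strand-marked libraries and sequenced in pairs. The authors deposited estimated counts per gene, without normalisation and already whole, so rounding changed nothing. The FPKM values, a unit the file headers name, were scaled by the authors to transcript length and library total. The submitters' processing notes name Bowtie 0.12.2 and build mm8. The counting program and its use of strand are not given in the sources used here. Coordinates are those of GENCODE M21 on GRCm38, identical for 89.4% of the deposited genes it holds. Another 12 columns match no labelled sample and were not used. Among deposited counts of 1 to 20, 42.1% to 47.2% were divisible by 4, and 4 counts were read as 1 fragment. Replicate libraries differed beyond sampling noise (chi-square over degrees of freedom 18.2 for knockdown and 17.5 for control).

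Tests used edgeR 4.0.16 in R 4.3.3 (filterByExpr, TMM, robust quasi-likelihood F test, two-sided, no covariate), with Benjamini-Hochberg adjusted p under 0.05 over all genes. A positive log2 fold change means higher in knockdown, and the procedure was tested on simulated data. The alternatives used DESeq2 1.42.0, limma 3.58.1, other scalings and filters, FPKM values, counts divided by 4, left-out libraries and the replicate number. The genes and lists were chosen with earlier results of these data known. Named were the 9 genes, every listed complement or transcription factor gene that passed, the pair per role with the highest FPKM and the 5 most similar patterns. C1s1, C2, C4b, Cfd, Cd55, Lrp1, Vtn, the markers and the genes of 1 library were named after their values were seen. A listed item is not reported here.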

Additional observations from a re-analysis of the deposited data

How the results depend on the processing

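Each of the 9 complement genes kept its direction in every alternative run. The count of genes that passed, 4, was 6 with DESeq2 and 5 without a filter (1 of them higher in each), 3 with limma-voom and 4 with other scalings, a stricter filter or counts divided by 4. It became 2 at an adjusted p under 0.01, 2 without edgeR's robust option and 0 with limma on log2(FPKM + 1) or log2(FPKM + 0.1), and ran from 2 to 3 when 1 library was left out. With the replicate number as a block, 0 of the 9 passed (adjusted p = 0.0521 for C1qb and C1qc), nor did any gene. Over all genes, 150 passed, against 681 with DESeq2, 297 without a filter, 65 with limma-voom, 7 without the robust option, 7 at an adjusted p under 0.01, 3 in each FPKM fit and 0 with the block, and 41 to 112 with 1 library left out. The cause was not tested. Same-numbered libraries tended only weakly to deviate in opposite directions (r = -0.18 over 9982 genes), and the labels give no pairing. With crossed numbers, added after the data were seen, 119 genes and 4 of the 9 passed. Of the other complement genes 0 passed, against 2 with DESeq2 and 1 without a filter. The C1q chain ratios kept their sign in every setting. Uncalled genes changed sign when 1 library was left out, with log2 fold changes from -0.77 to 0.29 for C1qtnf12, -2.38 to 1.87 for C1qtnf6, -0.82 to 0.21 for C8g, -0.044 to 0.028 for Calr, -0.20 to 0.029 for Itgam and -0.072 to 0.019 for Spi1. Among the 9 genes, Cfb, C1qa and C5ar1 had the fewest counts, and counting error is relatively widest there.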
